A study of Mus musculus with 34 samples.

Results

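The H3K27ac peak lists of CTCF-depleted dendritic cells before LPS (KO) and after LPS (KOLPS) were compared with each other. Peaks of a list that lay within 500 bp of each other were merged into regions, and a region was called shared when it overlapped a region of the other list by at least 1 bp, lost when it was found in KO only, and gained when it was found in KOLPS only. Of 47939 KO regions, 22498 were lost with LPS, and of 48278 KOLPS regions, 20060 were gained. The pair makes up 2 of the 34 samples of the series, for which 30 peak lists were used.

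The cells were bone marrow-derived dendritic cells (BMDCs), made by culturing bone marrow of C57BL/6 mice, given as 8 weeks old, with GM-CSF for 6 days and selecting CD11c+ cells on beads. KO and KOLPS cells had the genotype CreER;CTCF fl/fl, while the wild-type lists WT and WTLPS came from CreER littermates. CreER was expressed from Rosa26, and cultures of both genotypes received 4-OH tamoxifen on day 1 only, so WT cells also carried the recombinase and met the drug. KOLPS and WTLPS cells received LPS at 100 ng/ml for 3 h, whereas KO and WT cells received none. Deletion began in culture from marrow progenitors, so the cells differentiated while CTCF was being lost.

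H3K27ac, acetylation of lysine on the tail of histone H3, marks active promoters and enhancers. In dendritic cells, LPS is sensed by TLR4, which activates NF-κB (p65 is its main activating subunit) and, through type I interferon, the IRF and STAT factors, and acetylation then builds up at cytokine, chemokine and interferon-stimulated genes. CTCF binds insulator sites and, with cohesin (SMC1 is one of its subunits), holds chromatin loops that bring enhancers to promoters.

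Sequences are shown first for 5 promoters, all at interferon-stimulated genes whose H3K27ac increased in the CTCF-depleted cells. Each is the 200 bases before the RefSeq start site (GRCm38.p6), 5′ to 3′ on the gene's strand, with capitals marking every match to the IRF motif GAAANNGAA on either strand, where overlapping matches run together. Ifit3, an antiviral effector, lies at chr19:34583329-34583528 (+) and held 3 matches. Isg15, a ubiquitin-like modifier, lies at chr4:156200819-156201018 (-) and held 3. Rsad2, which makes viperin, lies at chr12:26456453-26456652 (-) and held 1. Oas3, a sensor of double-stranded RNA, lies at chr5:120777660-120777859 (-) and held 2. Ifi205, of the interferon-inducible p200 family, lies at chr1:174031756-174031955 (-) and held 1. The first 4 lay at regions present before and after LPS that rose, and Ifi205 at a gained region with a fold enrichment of 9.44 on 16 fragments.
Ifit3: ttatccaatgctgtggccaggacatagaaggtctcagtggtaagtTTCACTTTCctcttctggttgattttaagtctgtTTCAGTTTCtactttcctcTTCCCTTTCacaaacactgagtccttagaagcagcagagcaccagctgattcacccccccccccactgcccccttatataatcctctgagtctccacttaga
Isg15: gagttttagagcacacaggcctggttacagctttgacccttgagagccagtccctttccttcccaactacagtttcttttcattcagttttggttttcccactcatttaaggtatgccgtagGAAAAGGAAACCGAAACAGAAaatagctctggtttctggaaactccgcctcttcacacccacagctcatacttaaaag
Rsad2: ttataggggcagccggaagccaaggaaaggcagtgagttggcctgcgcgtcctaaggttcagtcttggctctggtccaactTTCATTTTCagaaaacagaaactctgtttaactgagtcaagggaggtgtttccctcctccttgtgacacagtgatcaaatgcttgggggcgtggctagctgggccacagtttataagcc
Oas3: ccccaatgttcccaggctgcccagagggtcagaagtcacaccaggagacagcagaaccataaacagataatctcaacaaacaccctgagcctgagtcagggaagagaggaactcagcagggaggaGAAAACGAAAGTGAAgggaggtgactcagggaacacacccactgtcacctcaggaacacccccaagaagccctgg
Ifi205: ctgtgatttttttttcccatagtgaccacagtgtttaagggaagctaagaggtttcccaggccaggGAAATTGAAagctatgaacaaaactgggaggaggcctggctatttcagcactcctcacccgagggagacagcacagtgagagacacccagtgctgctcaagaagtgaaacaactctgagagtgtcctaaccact

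A second set shows summits of WTLPS p65 peaks that overlapped regions gained in KOLPS beyond counting error (defined with the region counts). They were picked from 21 such regions, and how many of the 21 hold the motif is not given here. Each is 101 bases of the plus strand of GRCm38.p6 centred on the summit, with capitals marking the NF-κB motif GGNNTTTCC. The region whose nearest protein-coding start was that of Il12a, a subunit of IL-12, gave chr3:68597007-68597107, with the motif 3 bp from the summit. That near Fos, an AP-1 subunit, gave chr12:85510547-85510647, with the motif 33 bp away, and here the summit itself lay just outside the gained region, which ended at position 85510532. That near Creb5, a leucine zipper factor, gave chr6:53341460-53341560, with the motif 16 bp away. These p65 peaks are those of wild-type cells, and the Il12a and Fos regions overlapped no p65 peak of KOLPS. The Il12a region was also acetylated in WT cells before LPS.
Il12a region: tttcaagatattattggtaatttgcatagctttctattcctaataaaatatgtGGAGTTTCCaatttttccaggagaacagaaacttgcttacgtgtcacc
Fos region: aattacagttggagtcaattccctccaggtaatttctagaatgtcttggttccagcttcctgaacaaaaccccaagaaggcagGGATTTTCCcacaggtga
Creb5 region: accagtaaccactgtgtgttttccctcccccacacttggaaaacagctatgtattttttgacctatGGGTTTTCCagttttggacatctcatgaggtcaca

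The labels give a single list for each condition, so no test between conditions was possible, and intervals cover counting error only. The lists held 83461 (WT), 77050 (WTLPS), 81404 (KO) and 78202 (KOLPS) peaks, and the fragments per background base recovered from them were 1.173, 1.198, 0.748 and 0.801. CTCF itself gave 60537, 54020, 20151 and 11576 peaks in the same order, so the CTCF-depleted cells had fewer sites but still many. Dendritic cell promoters were acetylated in every list for 9 of 10 markers, all but Flt3, with summed fold enrichments of 142, 154, 132 and 106. Macrophage markers were acetylated at 3 of 7 promoters in each list, with summed folds of 33.1, 28.2, 51.4 and 30.7. Granulocyte markers were acetylated at 0 of 7 promoters in WT, at Camp in WTLPS, and at S100a8 and Camp in both KO and KOLPS, with summed folds of 0, 5.01, 19 and 16.7. Their part in the results was not tested. T cell and mast cell or basophil markers had no promoter peak in any list, whereas the NK marker Klrb1c had one in all 4, the B cell marker Ms4a1 in KOLPS only (fold 4.44) and the erythroid marker Hbb-bt in WTLPS only (fold 3.64). Because these are bulk cultures, fewer acetylated cells and less acetylation per cell cannot be told apart.

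In CTCF-depleted cells, regions came and went in nearly equal numbers, and most of them were small. Lost regions made up 46.9% of KO regions (95% Wilson interval 46.5 to 47.4%), and gained regions 41.6% of KOLPS regions (41.1 to 42.0%). Of the 66145 regions of either list, 34% were lost and 30.3% gained. In wild-type cells 46.0% of WT regions were lost and 43.2% of WTLPS regions gained, close to the shares without CTCF.

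Gained and lost regions were narrow and rested on few fragments. Gained regions had a median of 169 bp and lost ones 193 bp, each with a median of 7 fragments at the strongest peak, while the lowest count that was called at all was 5. Shared regions, by contrast, had medians of 1068 bp and 11 fragments in KO and of 677 bp and 10 fragments in KOLPS. Gained regions held 12.4% of the bases in KOLPS regions and lost ones 14.6% of those in KO regions. With the regions of a list sorted by q-value into 10 equal bins, 17.3% of KO regions in the weakest bin were shared with KOLPS, against 99.6% in the strongest. Counted from KOLPS, the shares were 22.0% and 99.5%.

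**Figure D1:**
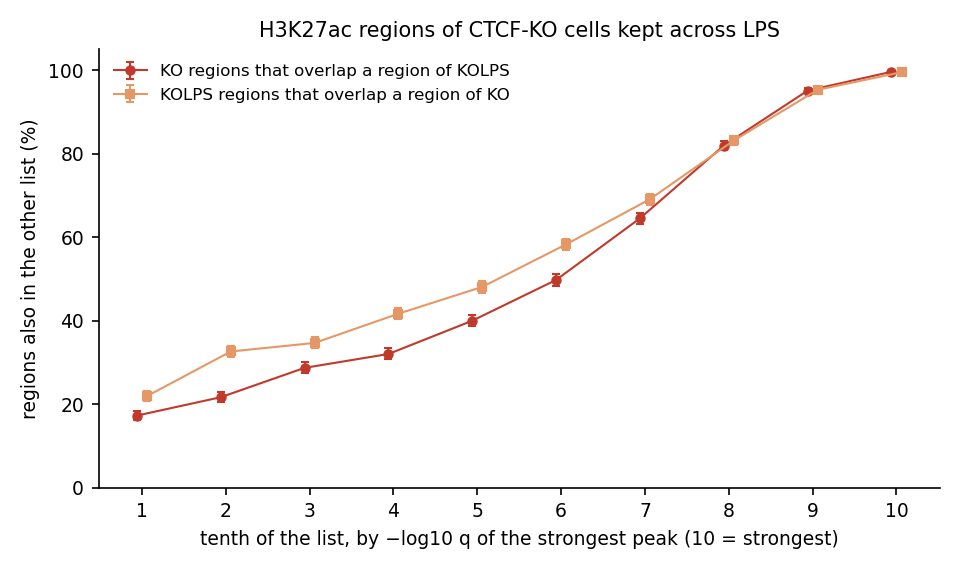
Percent of KO and KOLPS regions that are also in the other list (y axis), against 10 bins of region strength by -log10 q, weakest to strongest (x axis), with 95% Wilson intervals. The KO share goes from 17.3% in the weakest bin to 99.6% in the strongest.

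A region was therefore also asked to exceed counting error, which meant at least 14 fragments in KOLPS or 13 in KO. The other list was taken to hold 4 fragments there, just below the lowest count, 5, that was called anywhere in it. Where the background is high, a site can hold more than 4 fragments and stay uncalled. Regions named beyond counting error here therefore need not all be so. That left 174 gained regions (0.36% of KOLPS regions) and 574 lost ones (1.2% of KO regions) in CTCF-depleted cells. The excess of losses was not corrected for differences between the lists, which covered 41.3 Mb in KO and 32.4 Mb in KOLPS. Among stretches shared by both lists, with the change of fold centred on its median (below), 184 rose and 170 fell. In wild-type cells 490 gained and 464 lost regions passed, from 15 fragments. A few of the regions that passed lay where enrichment was low on many fragments, such as the lost one at Gm10718 with a fold of 1.84 on 356 fragments and peaks in 24 of the 30 lists.

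The strongest gained region by q-value lay at chr12:85665037-85667945, 20244 bp from the start of Batf, an AP-1 family factor of dendritic cells. It had a fold enrichment of 13.3 on 23 fragments, overlapped p65 peaks of both WTLPS and KOLPS, and was acetylated in WTLPS but not in WT. Of the 10 strongest gained regions, 3 were acetylated in WTLPS and not in WT, 6 in both and 1 in neither. The last lay near Cd200, an inhibitory ligand of myeloid cells, with a fold of 3.78 on 63 fragments and no peak in any other list. Regions acetylated in both wild-type lists lay in introns of Clec4n, the fungal receptor Dectin-2 (fold 11.7), and Aftph, a vesicle trafficking protein (fold 10.6).

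Among the strongest lost regions was 1 in an exon of Vwf, von Willebrand factor, with a fold of 14.9 on 25 fragments. It was acetylated in WT and not in WTLPS, as was a lost region near Cyp8b1, a bile acid synthesis enzyme, with a fold of 12.6. These were the 2 of the 10 strongest lost regions with that order, while 5 were in both wild-type lists, 2 in neither and 1 in WTLPS only. The one near Fcgr2b, the inhibitory Fc receptor, with a fold of 12.6, was acetylated in both WT and WTLPS.

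Lost regions lay at promoters more often than gained ones. Within 2.5 kb of a start site lay 19.7% of lost and 15.7% of gained regions, against 39.7% of shared regions counted in KO. Introns held 45.0% and 48.2%, and 32.0% and 32.5% lay outside genes. Among regions beyond counting error, 29.8% of lost and 14.9% of gained ones were at promoters. A peak at the promoter in KOLPS only was found for 408 protein-coding genes, 1.86% of 21911, and in KO only for 1239, or 5.65%.

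Gained regions carried little p65. A KOLPS p65 peak overlapped 23 gained regions, 0.115% of them, against 0.160% of lost regions and 4.50% of the wider shared regions counted in KOLPS. Of the regions gained in wild-type cells, 1.74% overlapped WTLPS p65. The KOLPS p65 list held 1752 peaks and that of WTLPS 5465, and WTLPS p65 overlapped 1.06% of gained regions. Among gained regions beyond counting error, 21 (12.1%, 8.03 to 17.7%) overlapped WTLPS p65 and 2 (1.15%) KOLPS p65, against 10 (1.74%) of the lost ones for WTLPS p65. The 21 included regions whose nearest starts were Il12a (92993 bp away), Il6 (133597 and 117263 bp away), and Tnfaip3 (68666 bp away), which encodes the NF-κB inhibitor A20.

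Cohesin before LPS was found more often at the lost regions. KO SMC1 overlapped 10.4% of lost and 3.90% of gained regions, and 38.5% of lost and 9.77% of gained regions beyond counting error. After LPS, KOLPS SMC1 overlapped 12.7% of these lost and 10.3% of these gained regions, from a list of 17241 peaks against 29965 in KO. Lost regions were chosen for H3K27ac in KO, the same condition as the KO SMC1 list. Those beyond counting error were also wider, with a median of 823.5 bp against 399.5 bp for gained ones. Of the other marks, KO H3K4me1, found at enhancers, lay at 72.3% of lost and 61.7% of gained regions, and KO H3K4me3, found at promoters, at 15.1% and 8.19%.

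Motifs at the summits of gained regions were found about as often as, or less often than, in the windows beside them. Within 50 bp of the summit, the NF-κB motif was found in 1.17% of gained regions, against 1.62% and 1.71% in windows 1 kb to either side. For IRF the share was 2.37% against 3.49% and 3.72%, and for PU.1 (GAGGAAG, the myeloid lineage factor) 2.97% against 3.61% and 3.45%. AP-1 (TGANTCA) was found in 3.58% against 3.41% and 3.17%, CEBP (TTGCNNAA) in 4.12% against 4.31% and 4.16%, and STAT (TTCNNNGAA) in 2.71% against 3.36% and 3.27%. All were rare at the 174 summits beyond counting error. AP-1 was found in 0 of them (5 within 100 bp), NF-κB and PU.1 in 1 each, STAT in 3, and IRF and CEBP in 4 each. The windows beside these held 4 and 1 for NF-κB and 2 and 3 for AP-1. Lost regions gave 1.2% for NF-κB, 2.66% for IRF and 3.50% for AP-1, against 2.89% and 3.02% in the windows beside them.

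The regions that CTCF-depleted cells gained were largely not those of wild-type cells, and the same held for lost regions. Of KO gained regions, 10.4% overlapped a region gained in wild-type cells and 5.80% one lost there, and 8.64% of the wild-type gained regions overlapped a KO gained region. Of lost regions, 15.4% overlapped a wild-type lost region and 5.28% a gained one, and 13.5% of the wild-type lost regions overlapped a KO lost region. The 2 genotypes share no control sample. In neither WT nor WTLPS were 54.4% of the gained regions acetylated, against 50.5% of the lost ones and 11.1% of shared regions counted in KOLPS. Conversely, 79.3% of wild-type gained regions were in neither KO nor KOLPS.

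Beyond counting error the directions of both genotypes met more often. Of 174 such gained regions, 44 (25.3%, 19.4 to 32.2%) overlapped a region gained in wild-type cells and 10 (5.75%) one lost there. Of 490 wild-type gained regions that passed, 180 (36.7%) overlapped a KO gained region. Of 574 such lost regions, 183 (31.9%, 28.2 to 35.8%) overlapped a wild-type lost region and 27 (4.70%) a gained one, while 34.7% of the wild-type lost regions that passed overlapped a KO lost region. A further 33.9% of these gained regions and 20.7% of these lost ones were in neither wild-type list.

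Within the 23587 stretches shared by KO and KOLPS, the promoters that gained acetylation included 8 of the 18 genes of the interferon-stimulated list. The fold enrichment of the strongest peak after LPS was divided by that before, on a log2 scale centred on its median of -0.21. By this measure 184 stretches (0.78%) rose at least 2-fold beyond counting error and 170 (0.721%) fell. In wild-type cells 483 of 25515 rose and 271 fell. The risen stretches of the CTCF-depleted cells lay at 71 protein-coding promoters, 0.324% of 21911, and at 44.4% of the interferon-stimulated list (8 of 18), with 2 of 20 cytokines, 1 of 15 chemokines, 1 of 12 maturation genes and none of the genes of the other 9 lists.

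The stretch with the largest increase covered the Ifit3 promoter, shown above, at chr19:34582443-34584268. Its fold enrichment was 4.47 on 8 fragments in KO and 16.1 on 28 in KOLPS, a centred log2 change of 2.06 (counting SE 0.58), against 0.99 in wild-type cells. Oas3 went from 5.72 to 18.9, a change of 1.94 (counting SE 0.54), against 0.67 in wild-type cells. Irf7, the factor that amplifies interferon transcription, went from 6.864 to 19.99, a change of 1.75 (counting SE 0.50), against 1.47. These stretches were chosen by their increase without CTCF, which favours larger values there, so the wild-type values are no comparison of size. The other 7 of the 10 largest increases lay at Gypc, a red cell membrane glycoprotein (3.43 to 11.7, a change of 1.98), Alcam, an adhesion molecule (1.93), Rtp4 (1.81), Birc3, an inhibitor of apoptosis (1.81), Xaf1 (1.79), Slco3a1, an organic anion transporter (1.75), and Eif2ak2, the kinase PKR (1.68). Rtp4, Xaf1 and Eif2ak2 are interferon-induced.

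The largest decreases fell at genes of mixed function. The stretch at D630023F18Rik went from 14.3 to 3.23, a centred log2 change of -1.93. Cflar, which restrains caspase activation, went from 18.3 to 4.998 (-1.66), and a stretch near Prss22, a serine protease, from 21.2 to 5.84 (-1.64). Among the promoters of 73 protein-coding genes at stretches that fell were those of Csf1r, the M-CSF receptor, Tgfbr1, a TGF-β receptor, Cxcr4, a chemokine receptor, and Hmox1, heme oxygenase.

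Most of these stretches changed in the same direction in wild-type cells. Of 166 risen stretches with a wild-type partner, 152 (91.6%) had a change above 0 there, with a median of 0.88. Of 152 fallen stretches with a partner, 9 (5.92%) were above 0, with a median of -0.64. The stretches were chosen on the CTCF-depleted lists, so their sizes are not compared between genotypes. Of the stretches that did neither, 50.1% were above 0. WTLPS p65 overlapped 35.9% of risen, 11.8% of fallen and 13.2% of other stretches. For KOLPS p65, that of the CTCF-depleted cells, the shares were 17.9%, 7.65% and 5.61%. KO SMC1 overlapped 53.8%, 84.1% and 46.0%. KOLPS SMC1 overlapped 59.8%, 55.3% and 32.5% in the same order.

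The IRF motif was frequent in the promoters at risen stretches. It was found in the 250 bases before the start of 24 of the 55 such genes with a RefSeq promoter (43.6%, 31.4 to 56.7%), against 1332 of all 16522 (8.06%), 545 of 6719 at any shared stretch (8.11%), and 6 of 58 at fallen stretches (10.3%). At gained regions beyond counting error it was found in 4 of 15 (26.7%, 10.9 to 52.0%), as was the NF-κB motif. The NF-κB motif was found in 9 of 55 (16.4%, 8.86 to 28.3%) at risen stretches, 3 of 58 (5.17%) at fallen ones and 931 of all promoters (5.63%). The AP-1 motif was likewise found in 9 of 55 at risen stretches, against 7.2% of all promoters. Related genes such as the Ifit and Oas families share promoter sequence, so these promoters are not independent.

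**Figure D2:**
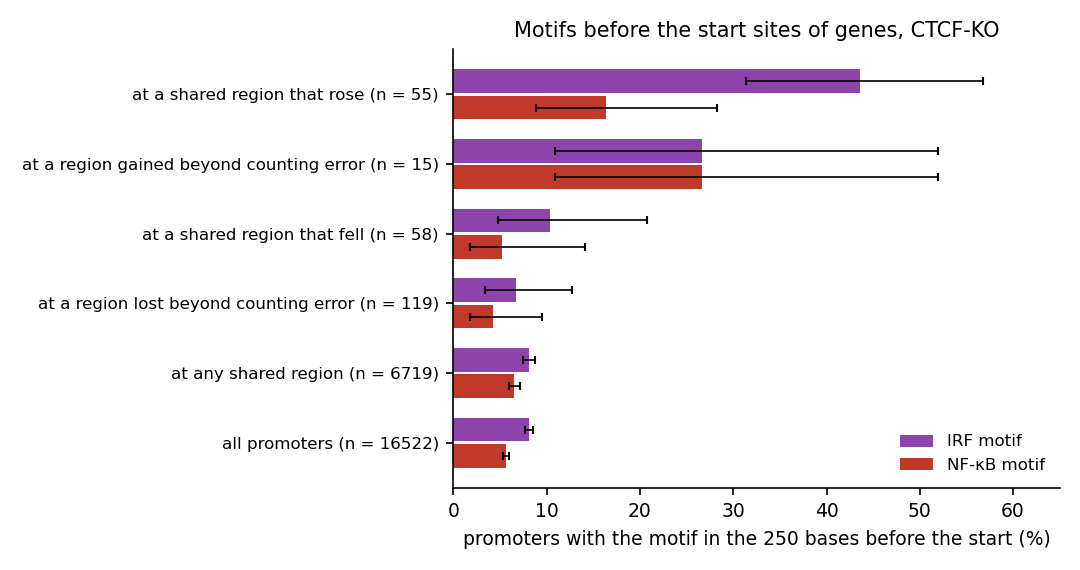
Percent of RefSeq promoters with an IRF or NF-κB motif in the 250 bases before the start, for genes at each set of regions of the CTCF-depleted cells, with 95% Wilson intervals. The IRF motif is found in 43.6% of promoters at risen stretches and in 8.06% of all promoters.

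Around single genes, most LPS response genes gained acetylated bases in CTCF-depleted cells. Whether they gained fewer than in wild-type cells depended on the scale, since the lists covered 60.9 (WT), 59.6 (WTLPS), 41.3 (KO) and 32.4 Mb (KOLPS) in all. Of 94 listed genes in 6 lists, 92 were matched, and 73 of them had more bases covered by peaks within 50 kb of the start in KOLPS than in KO, with 18 having fewer. Over all protein-coding genes 16.2% had more and 55.4% fewer, and over the 16292 with any H3K27ac within 50 kb 21.8% and 74.5%. In wild-type cells 83 had more and 9 fewer, against 27.1% and 45% of all genes, or 36.5% and 60.6% of those with H3K27ac. The median change of the 92 genes was 2107 bp without CTCF and 6098 bp with it, while all genes had medians of -181 and 0 bp. For 81 of the 92 genes the change in bp was lower in CTCF-depleted cells, which held for 44.3% of all genes and 59.6% of those with H3K27ac. With each gene's cover divided by the Mb its list covers, the order turned, and the change was lower in CTCF-depleted cells for 32 of the 92 genes, against 46.8% of genes with H3K27ac. The medians were then 138 bp per Mb without and 118 bp per Mb with CTCF, and 87 and 83 genes had more cover after LPS, against 41.2% and 38.2%. The number of listed genes with more cover was thus above the background on both scales.

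With the lists thinned to the lowest coverage, the change was lower in CTCF-depleted cells for 79 of the 92 genes, with medians of 2107 and 6570.5 bp. Thinning dropped weak peaks but left the width of the others, so covered bases were not matched for depth. With only peaks of a -log10 q of at least 5, it was lower for 77, with medians of 1541.5 and 4257.5 bp. A gained region lay within 50 kb of 89 of the 92 genes, against 45.8% of all protein-coding genes and 61.7% of those with H3K27ac. This was not particular to LPS response genes. It held for 16 of 16 myeloid transcription factors, 14 of 14 antigen presentation, 21 of 22 immediate early and 19 of 20 cell cycle genes. For TLR pathway, receptor, and lysosome and lipid genes it was 16 of 20, 13 of 16 and 12 of 16. A lost region lay near 76 of the 92 LPS response genes, against 53.9% of all genes and 72.5% of those with H3K27ac. Beyond counting error, 9 had a gained region (Cxcl5, Cxcl3, Rsad2, Cmpk2, Ifit1, Ifit2, Ifit3, Isg15 and Cd40), against 1.06% of all genes and 1.43% of those with H3K27ac. A lost one lay near 3, against 4.12% and 5.54%. Several of the 9 genes are neighbours and share regions. Outside the LPS response lists, only immediate early genes had such a gained region (2 of 22). In the deeper wild-type lists, 26 of the 92 genes had one and 1 a lost one, a difference not corrected for depth.

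In the lists taken singly, values are covered bp, not divided by the list's total. Among the cytokines, 17 of 20 genes were covered by more bases after LPS, with a median change of 2029 bp, against 19 and 7307 bp in wild-type cells. Around Il6 at chr5:30013114-30019981, the fever and acute-phase cytokine, peaks covered 16499 bp (WT), 45221 bp (WTLPS), 2906 bp (KO) and 15485 bp (KOLPS). The LPS-treated list was the higher one in each genotype, also per Mb of the list, with 271, 758, 70.4 and 477 bp per Mb. Il12a at chr3:68690644-68698547 had 0, 9521, 225 and 3266 bp in the same order, and Il12b, which encodes the other IL-12 subunit, 15282, 37957, 6345 and 10142. Il1b, an inflammasome substrate, had more bases in KO (29049) than in WT (19747), and 35924 in KOLPS against 42852 in WTLPS. Tnf had 43753, 49830, 42716 and 42295 bp, so its cover in bp did not increase without CTCF, although per Mb of the list it was 1034 in KO and 1304 in KOLPS.

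Chemokines had more covered bases in 14 of 15 genes, with a median change of 4366 bp against 11055 bp in wild-type cells, where 13 increased. Cxcl5, a neutrophil attractant, had 8456, 30823, 7050 and 17585 bp, and its neighbour Pf4, platelet factor, 3490, 18903, 1835 and 9797. Cxcl10, which attracts T cells, had 4234, 23012, 5757 and 13862 bp, and Ccl5 35397, 46452, 30303 and 36415. All of these were higher after LPS in both genotypes. KOLPS was below WTLPS in bp, but per Mb of the list it was above at Cxcl5 (542 against 517), Cxcl10 (427 against 386) and Ccl5 (1123 against 779), and below at Pf4 (302 against 317).

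Interferon-stimulated genes had more covered bases in 16 of 18, with a median change of 2360 bp against 6847 bp with CTCF. Rsad2 at chr12:26442746-26456452 and Cmpk2, neighbours that share their regions, both had 4740, 18562, 1958 and 10853 bp. Enzymes and acute-phase genes had more in 12 of 13, with medians of 1886 and 4490 bp, and Acod1, which makes itaconate, had 18140, 36081, 22544 and 30015 bp. NF-κB subunits and feedback genes were split, with 7 of 14 covered by more bases (median 344 bp) against 11 in wild-type cells (2158 bp). Dendritic cell maturation genes had more in 7 of 12 (median 952 bp) against 10 (2663 bp). Of these, Cd80 at chr16:38455561-38496335, a costimulatory ligand, had 27763, 54432, 16984 and 30259 bp, and Cd40, the receptor for T cell help, 3375, 15845, 2400 and 10414 bp.

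**Figure D3:**
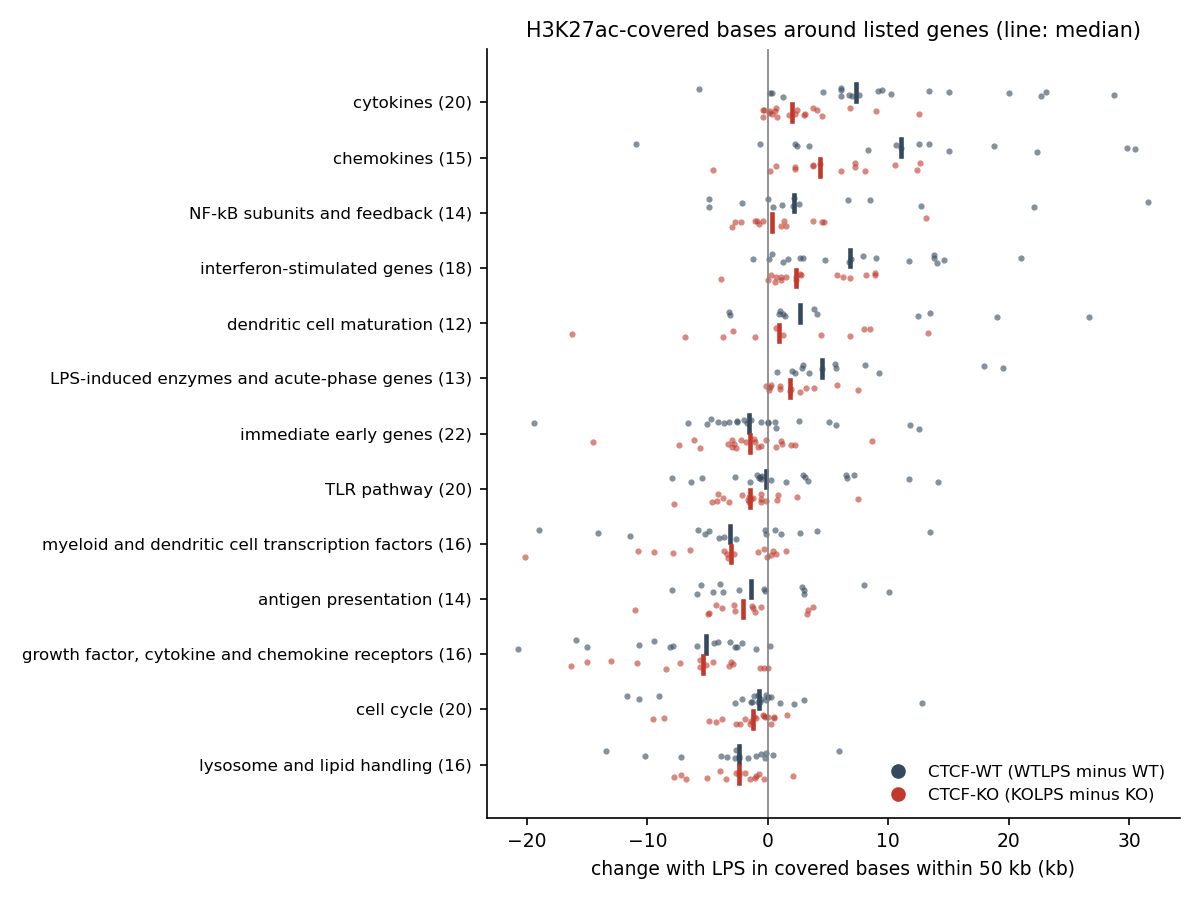
Change of H3K27ac-covered bases within 50 kb of the start with LPS (kb), for each gene (points) of the 13 gene lists (rows) with the list's median (line), in CTCF-depleted and wild-type cells. The medians of the LPS response lists are above 0 in both genotypes and lower without CTCF in bp, an order that turned for the 92 genes together when cover was divided by the total of each list.

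In the other lists fewer covered bases after LPS was the common direction, as it was for 74.5% of all genes with H3K27ac in CTCF-depleted and 60.6% in wild-type cells. Growth factor, cytokine and chemokine receptors had more in 0 and fewer in 15 of 16, with a median of -5366 bp, against -5159.5 bp with CTCF. Lysosome and lipid genes had fewer in 15 of 16 (-2366 against -2391.5 bp). The shares of the remaining lists lay near that of all genes with H3K27ac, with fewer bases for myeloid transcription factors in 12 of 16 (-3021 against -3132.5 bp) and antigen presentation genes in 11 of 14 (-2017 against -1349.5 bp). TLR pathway genes had fewer in 16 of 20 (-1484.5 bp), whereas in wild-type cells 10 had more and 10 fewer (-106.5 bp). Immediate early genes had fewer in 16 of 22 (-1492.5 against -1571.5 bp) and cell cycle genes in 15 of 20 (-1237 against -720.5 bp).

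Among single genes, much cover was lost around Clec9a at chr6:129408862-129424763, a receptor for dead cells on cross-presenting dendritic cells, with 42833 (WT), 20974 (WTLPS), 35969 (KO) and 14014 (KOLPS) bp. Its neighbour Clec1a had 49631, 28006, 38044 and 15877 bp, and the clustered lectins share regions. Batf3, a factor of the same dendritic cell lineage, had 45404, 26433, 31772 and 11618 bp. Csf1r had 27168, 12129, 29458 and 13132 bp, and Mrc1, the mannose receptor, 18856, 12765, 13630 and 5217 bp. Each was lower after LPS in both genotypes, in bp.

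At promoters with a peak in all 4 lists, most LPS response genes had a lower change without CTCF. Over 7932 such promoters, the centred log2 change was lower in CTCF-depleted cells in 52%. Among 70 LPS response genes it was lower in 51, with medians of 0.39 without and 0.87 with CTCF. The 14 cytokines had medians of 0.40 and 0.79, and the 5 enzymes and acute-phase genes 0.14 and 0.99. The 16 interferon-stimulated genes had medians of 1.15 and 1.14, although 12 of them were lower in CTCF-depleted cells, and all 16 were above 0 there. Gene by gene, the median difference of CTCF-depleted minus wild-type cells was -0.27 for interferon-stimulated genes, -0.41 for cytokines and -0.03 over all promoters, and whether the lists differ was not tested.

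Single promoters varied. At Il6 the fold enrichment was 7.36 (WT), 23.7 (WTLPS), 8.58 (KO) and 11.7 (KOLPS), centred log2 changes of 1.78 (counting SE 0.42) with CTCF and 0.75 (0.50) without. At Tnf it was 8.74, 22.3, 16.6 and 17.8, with KO above WT before LPS and changes of 1.45 and 0.40. At Cxcl10 it was 7.36, 15.5, 8.01 and 20.6, so KOLPS was the highest list. Isg15 had 8.74, 27.3, 8.01 and 16.7, and Ifit1, an RNA-binding antiviral protein, 6.44, 18.2, 9.15 and 18.9. Tgfbr1 had 9.20, 5.92, 12.0 and 3.89, lower after LPS in both genotypes.

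**Figure D4:**
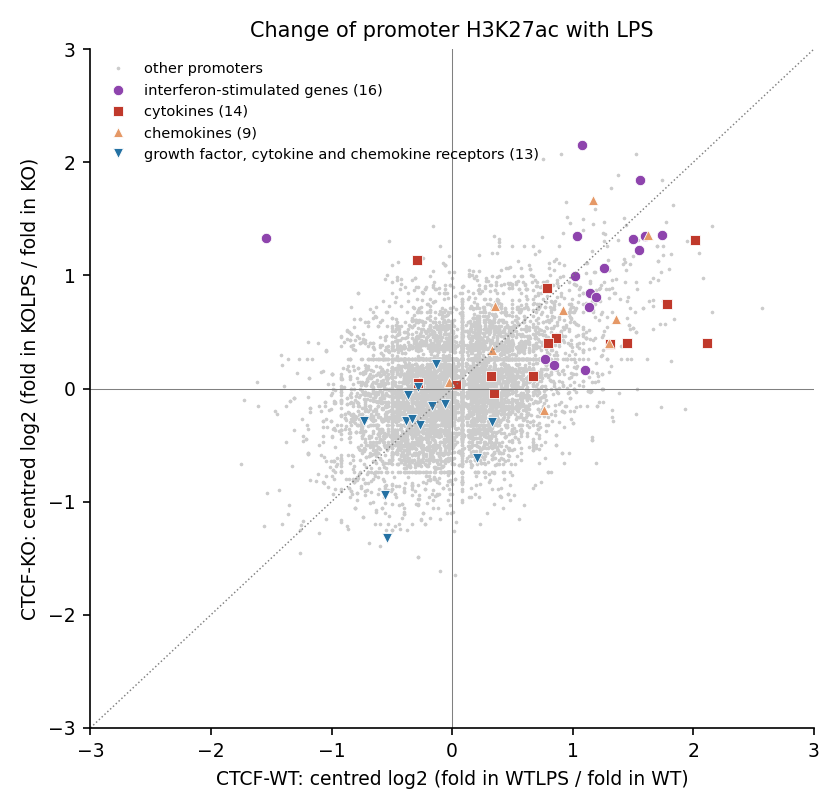
Centred log2 change of promoter fold enrichment with LPS in CTCF-depleted cells (y axis) against wild-type cells (x axis), for 16 interferon-stimulated genes, 14 cytokines, 9 chemokines and 13 receptors, with all other promoters that had a peak in all 4 lists in grey. Points under the dotted diagonal changed less without CTCF, as 11 of the 14 cytokines did.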

How the data were processed

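H3K27ac ChIP (paired-end, tagmentation-based libraries) was analysed from the deposited peak lists of WT, WTLPS, KO and KOLPS, with the p65, SMC1, STAT5, CTCF and histone mark lists as overlaps. Per the labels, the authors aligned to mm10 with BWA 0.7.12, used Picard 1.77 and deepTools 3.1.3, and called peaks with MACS2 2.1.2. Per the study's reporting summary, ChIP-seq had 2 biological replicates per condition and replicates were merged and processed again. Its methods, however, describe peak calling per sample and replicate. Each deposited list was taken as that of merged replicates, but it may stem from a single replicate. No spread between replicates could be had. The deposited values per peak are a ratio (fold enrichment over background), a -log10 p-value and a -log10 q-value. Fragments per peak and the coverage were recovered from fold and p-value under the Poisson model, within a tolerance of 0.002. This step was tested on simulated data. Counting SEs come from these fragments. Gene starts were taken from the annotation of GRCm38.p6, and gene cover was counted within 50 kb. Members and gene lists were chosen with earlier results of these data known. Named genes were those of the fixed lists, plus the 10 with the most gained or lost bases and the 10 strongest regions per set. The rules for counting error, for risen and fallen stretches and for promoter changes and motifs were chosen after the data were seen. Shares have 95% Wilson intervals. Python 3.11.15, pandas 2.3.3, scipy 1.17.1, pysam 0.24.0 and samtools 1.23.1 were used.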

Additional observations from a re-analysis of the deposited data

Results flagged for a closer look

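Of 110 named genes, 14 changed covered bases within 50 kb in opposite directions with LPS in the 2 genotypes, 10 with more in wild-type and fewer in CTCF-depleted cells and 4 the other way. These 14 are 12.7% of the named genes, against 18.8% of all protein-coding genes (4121 of 21911) and 25.3% of those with H3K27ac, so opposite directions were not more common among them. With 1 list per condition each difference was not tested. With cover divided by the Mb covered by the list, 6 of the 14 still changed in opposite directions (Ccl17, Ccne1, Dusp1, Mx1, Osm and Tlr7). In the first set the change without CTCF was -6888 bp at Cd274 (PD-L1; 967 with CTCF), -3231 bp at Tlr2 (6469), -1547 bp at Tlr7 (3070), -1042 bp at Icosl (4102), -993 bp at Ccne1 (62), -795 bp at Fosl2 (5082), -691 bp at Traf1 (2102), -594 bp at H2-Eb1 (2989), -421 bp at Tnf (6077) and -279 bp at Irf4 (4109). In the second set it was 3754 bp at Ccl17 (-609), 2767 bp at Mx1 (-1238), 721 bp at Dusp1 (-1926) and 399 bp at Osm (-5706).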

How the results depend on the processing

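Values are given in the order KO lost, KOLPS gained, WT lost, WTLPS gained, KO gained regions overlapping WT gained, KO lost overlapping WT lost, and gained regions with KOLPS p65 (all percent). Without merging they were 48.1, 37.8, 45.7, 42.7, 13.1, 18.1 and 0.227. With an overlap of at least 50% the first 6 were 50.8, 46, 50.4, 47.9, 8.99 and 13.5. With a -log10 q of at least 5 in all lists they were 43.6, 30.5, 44.9, 30.3, 11.3, 23.6 and 0.572, and with it in the counted list only 24.2, 16.8, 25.1, 18.1, 14.1, 20.4 and 0.347. Beyond counting error they were 1.2, 0.36, 0.844, 0.923, 25.3, 31.9 and 1.15, and 9 LPS response genes had a gained region. Lists thinned to the lowest coverage gave 43.6 for WT lost, 41 for WTLPS gained, and 10 and 14.4 for the overlaps. With promoters of 1 kb to either side, 7% of gained and 11.5% of lost regions were at promoters. With 100 bp around the summit, the motif shares for NF-κB, AP-1, PU.1, CEBP, IRF and STAT were 2.45, 7.02, 5.94, 8, 5.23 and 5.92 in gained, 2.54, 6.86, 6.75, 8.05, 5.43 and 5.97 in lost, and 2.92, 6.48, 7.35, 7.06, 4.68 and 5.45 in shared regions counted in KOLPS. With cover divided by the Mb covered by the list, a scale chosen after the data were seen, 32 and not 81 of 92 LPS response genes had a lower change in CTCF-depleted cells. Of 92 values, 33 moved by less than their interval or 1.5 times and 59 moved by more. Whether a direction reversed was not scored. No paired analysis was possible because each condition has 1 list. Most gained and lost regions rest on counts near the lowest that was called, so the share lost or gained depends on the threshold. Fewer fragments in KO and KOLPS limit what could be called there.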
